A study of Homo sapiens with 31 samples.

Results

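The genes of base excision repair, nucleotide excision repair, mismatch repair and direct damage reversal are described here in cell lines studied as ovarian cancer. They are 44 of the 19221 genes with values in the deposited table, chosen by symbol from a fixed list of members. The list holds 11 DNA glycosylases, 8 genes that process, fill and seal the abasic site, 18 genes of nucleotide excision repair, 6 mismatch repair genes and MGMT, of direct repair. mRNA was sequenced in 31 libraries of 4 groups, to ask how expression changed after C/EBPβ knockdown and with olaparib resistance. The study uses C13* as a cisplatin-resistant ovarian cancer line, although the paper itself questions this use because of its origin. The C13* groups carried a control shRNA (C13* shCON, n = 7) or a lentiviral shRNA against CEBPB (C13* shCEBPB, n = 8). A2780 is an ovarian carcinoma line whose untreated parent cells form the group A2780 (n = 8). The group A2780 OlaR (n = 8) is the labelled resistant strain, raised from A2780 under rising exposure to the PARP inhibitor olaparib and labelled as olaparib-treated. All 4 groups grew in the same medium. Whether a group came from 1 clone or from a pool is not given in the sources used here.

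Base excision repair starts when a glycosylase cuts a damaged or mispaired base from the sugar, an endonuclease opens the strand at the abasic site, and a polymerase and a ligase restore it. Nucleotide excision repair finds bulky lesions and ultraviolet photoproducts, opens the helix with TFIIH and removes a short oligonucleotide, while mismatch repair corrects errors of replication behind the fork. PARP1 binds the strand breaks that arise during base excision repair, which is why these genes are of interest in cells exposed to PARP inhibitors.

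The values are FPKM, a count of fragments scaled by transcript length and by library size, so levels can be set side by side between genes. Relative depth, read from the steps of low values, differed by 1.42 times between the deepest and the shallowest library. No read totals were at hand, so no counting error is given. CEBPB was at 30.2–58.7 FPKM in C13* shCEBPB and at 75.2–101 in C13* shCON, without overlap. In A2780 it was at 85.6–111 and in A2780 OlaR at 97.1–127 FPKM, and these ranges overlapped. The group labels and the transcriptomes did not follow each other. C13* shCON and A2780 OlaR had a correlation of 0.9926 between their mean log2(FPKM + 1) over 12967 genes, given as a description, and 69 genes were apart by at least 1 on that scale. The 5 other pairs of groups had correlations of 0.709 to 0.792 and 3542 to 4783 genes apart. KRT5, a squamous and basal keratin, was at 1530.4 ± 88.8 FPKM (mean ± SD) in C13* shCON and 1813 ± 155 in A2780 OlaR. It was listed at 0 in every A2780 library and at 0.0134 on average in C13* shCEBPB. The summed level of 8 squamous and basal markers (KRT5, KRT6A, KRT14, KRT17, TP63, SFN, DSG3 and DSC3) was 3136 to 3713 FPKM in C13* shCON, 3007 to 3883 in A2780 OlaR, 220.3 to 525 in C13* shCEBPB and 0.647 to 2.25 in A2780. Of the 8, 6 had a mean under 1 FPKM in C13* shCEBPB and 7 in A2780, where KRT5 and KRT6A were at 0 in every library. Of 5 mesenchymal markers, VIM was at 809 ± 13.8 in A2780 and 342 ± 10.7 in C13* shCEBPB, against 9.82 ± 0.648 and 0.160 ± 0.0585 in C13* shCON and A2780 OlaR. ZEB1 was likewise higher in A2780 (14.5) and C13* shCEBPB (6.55) than in C13* shCON (0.507) and A2780 OlaR (0.536). CDH2 (58.5, 7.56, 17.3 and 18.4, in that order of groups) and FN1 (0.524, 6.98, 7.93 and 7.70) had other orders, and SPARC was near 0 in all groups. Of 5 epithelial markers, CDH1, EPCAM and KRT19 were at 82.9 to 1836 FPKM in C13* shCON and A2780 OlaR and at 0.0280 to 1.2 in the other two groups. KRT8 and KRT18 were highest in C13* shCEBPB (882 and 535, against 459 and 319.8 in C13* shCON). Of 5 ovarian and Muellerian markers (PAX8, WT1, EMX2, MUC16 and MSLN), 4 had a mean under 1 FPKM in C13* shCEBPB and in A2780. In C13* shCON and A2780 OlaR 3 did. Their summed level was 99.9 to 198 FPKM in C13* shCEBPB, where MSLN was high, and 3.44 to 4.41 in A2780. It was 34.4 to 40.3 in C13* shCON and 25.5 to 37.8 in A2780 OlaR. In both comparisons of the study, the labelled treatment and this difference of cell state or line therefore cannot be told apart. In such bulk RNA, fewer cells of a type and less RNA per cell cannot be told apart either. In 1 C13* shCON library the cell line field reads A2780 while its title reads C13*. Groups are called by their labels throughout.

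Promoter sequence is shown for NEIL3, the member with the largest fall in C13* shCEBPB, for UNG, the member with the largest rise in A2780 OlaR, and for CETN2, which rose in C13* shCEBPB and holds a C/EBP motif. The sequences are those of RefSeq on GRCh38.p14, 5′ to 3′ on the strand of the gene, cut to the bases within 250 of the start site that lie outside annotated exons. Capitals mark an E2F motif in UNG and a C/EBP motif in CETN2, and NEIL3 held neither.
NEIL3 (chr4:177309624-177309873, plus strand): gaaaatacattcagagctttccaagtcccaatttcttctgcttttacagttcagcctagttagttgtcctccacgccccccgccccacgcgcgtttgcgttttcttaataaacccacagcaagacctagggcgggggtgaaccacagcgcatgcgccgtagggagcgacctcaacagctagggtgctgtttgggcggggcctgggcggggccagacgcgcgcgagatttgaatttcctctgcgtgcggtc
UNG (chr12:109097922-109098117, plus strand): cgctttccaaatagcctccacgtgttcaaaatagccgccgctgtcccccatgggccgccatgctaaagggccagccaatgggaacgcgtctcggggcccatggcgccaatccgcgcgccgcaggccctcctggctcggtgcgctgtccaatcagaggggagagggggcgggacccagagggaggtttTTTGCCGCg
CETN2 (chrX:152830758-152830966, minus strand): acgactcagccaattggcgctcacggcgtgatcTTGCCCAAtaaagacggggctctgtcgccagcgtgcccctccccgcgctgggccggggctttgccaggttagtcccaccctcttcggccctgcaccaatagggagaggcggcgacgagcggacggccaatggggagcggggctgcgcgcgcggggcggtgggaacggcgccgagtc
The E2F motif (TTTCCCGC, TTTCGCGC, TTTGCCGC or TTTGGCGC, on both strands) was in the 250 bases before a start site of 6 of the 41 members with a RefSeq window (14.6%). It was in 3.40% of all 27305 genes with such a window. That set, used for each motif here, is larger than the deposited table and was not matched to the members by expression. The E2F motif began 63 bases before the UNG start site shown. UNG has 2 RefSeq windows, and the stretch shown, from position 109097922, lies downstream of the first annotated base of the gene (109097597). The other holders were LIG1, XPC, CUL4A, MSH3 and PMS2. The C/EBP motif (TTGCNNAA, both strands) was in 4 members, which are MBD4, CETN2, DDB2 and PMS1. That is 9.76% of members against 11.0% of all genes. In CETN2 it began 176 bases before the start and overlapped a CCAAT box. CCAAT, on both strands, was in 23 members (56.1%) and in 37.0% of all genes. These are letter matches and not measured binding sites.

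Across the 4 groups, CUL4A, NEIL3 and UNG had the widest range of mean levels. CUL4A, the scaffold of a ubiquitin ligase that acts at ultraviolet lesions, was 8.73 times higher in C13* shCEBPB than in A2780. NEIL3, a glycosylase for oxidised bases that is expressed in dividing cells, was 8.35 times higher in A2780 OlaR than in C13* shCEBPB. UNG, the main uracil glycosylase, was 8.31 times higher in A2780 OlaR than in A2780. FEN1 (7.14 times) and EXO1 (5.02 times), nucleases of flap removal and mismatch excision, followed. At the other end, ERCC8, GTF2H4 and MSH3 differed by 1.12, 1.13 and 1.13 times between their highest and lowest group. The highest mean levels per length in any group were those of CUL4A and APEX1, and the lowest was that of ERCC5 in A2780 (0.253 ± 0.0706 FPKM).

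A2780 was the group that most often stood below the other 3. Every A2780 library was below every other library for 15 of 44 members (34.1%), against 17.8% of 12967 genes. These were UNG, MBD4, NTHL1, APEX2, XRCC1, LIG1, FEN1, XPC, DDB1, DDB2, ERCC6, ERCC5, MSH6, MLH3 and EXO1. It stood above for 5 (NEIL1, POLB, APTX, RAD23B and PMS2), or 11.4% against 27.4% of genes. C13* shCEBPB stood above for 10 (22.7%; 14.0% of genes) and below for 6 (13.6%; 19.5% of genes). C13* shCON stood above for none (2.98% of genes) and below for none (1.33%). A2780 OlaR stood above for LIG1 (2.27%; 2.73% of genes) and below for none (1.80%). C13* shCON and A2780 OlaR had nearly the same means (correlation 0.9926), so neither could often stand apart from all 3 others. Their counts are therefore not comparable with those of A2780 and C13* shCEBPB.

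**Figure D1:**
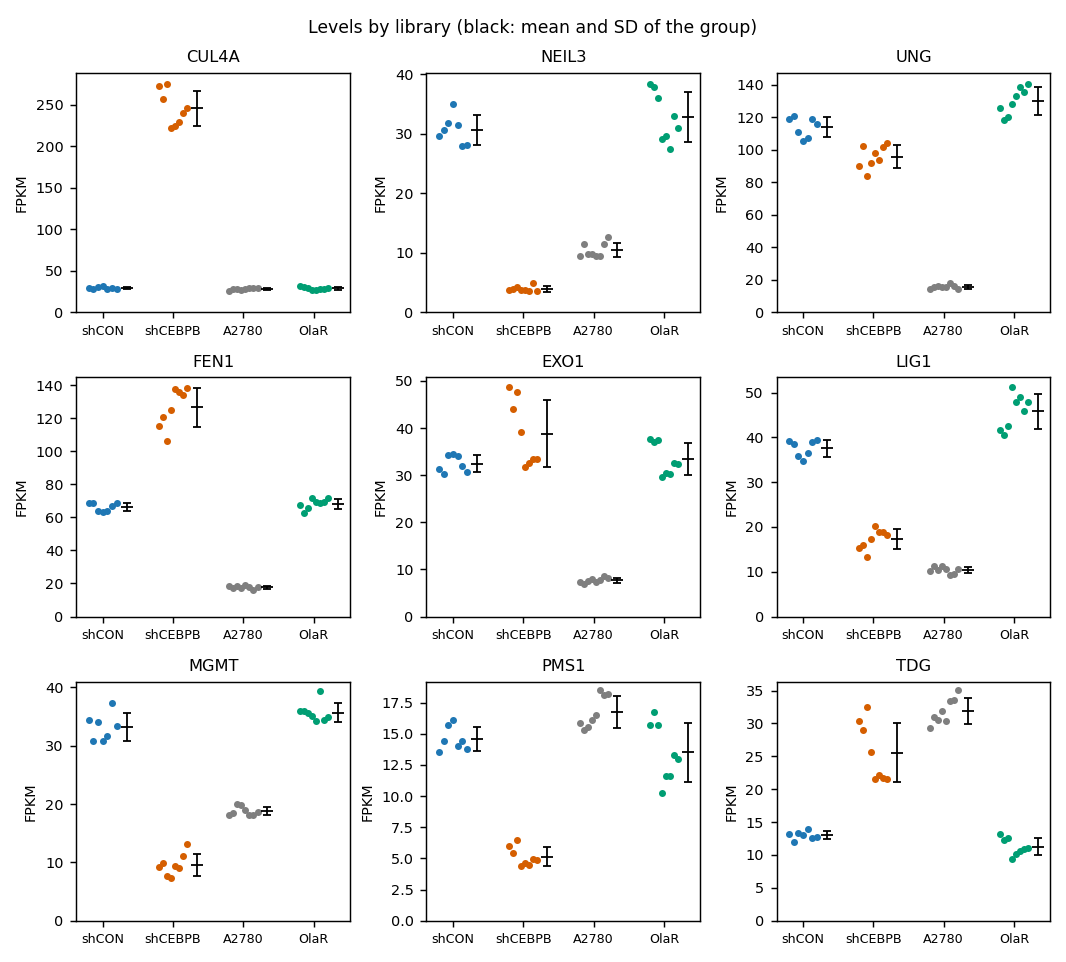
FPKM of 9 repair genes in each library of the 4 groups, with the mean and SD of the group in black; every axis starts at 0. CUL4A is high in C13* shCEBPB alone, NEIL3, MGMT and PMS1 are lowest there, and UNG, FEN1, EXO1 and LIG1 are lowest in A2780.

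C/EBPβ knockdown was read from C13* shCEBPB against C13* shCON. Repair genes moved in both directions, with 35 of 44 past an adjusted p of 0.05 in limma (79.5%; 84.7% of the 12006 genes tested). Of these, 18 were higher (40.9%; 38.9% of genes) and 17 were lower (38.6%; 45.7% of genes) in C13* shCEBPB. CUL4A and the alkyl-base glycosylase MPG were at least 2-fold higher on the log2(FPKM + 1) scale, on which every such count here was made. NEIL3, MGMT, PMS1 and LIG1 were at least 2-fold lower. These are 6 of 44 members (13.6%), against 29.5% of all genes (12.7% higher and 16.7% lower). SMUG1, at 2.01 times the FPKM, fell short on that scale. The median difference was −0.0032 over the members and −0.07 over all genes (log2). With a correction for GC content and gene length the split was 24 higher and 15 lower, and 10144 of 11518 genes passed. For 23 members (52.3%; 66.0% of genes) every library of 1 group lay above every library of the other.

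Of the 4 glycosylases for uracil and thymine mispairs, 3 rose. SMUG1, a uracil glycosylase, was at 11.1–14.0 FPKM in C13* shCON (median 12.0) and 19.9–27.0 FPKM (median 25.3) in C13* shCEBPB. The libraries did not overlap, and the difference was 0.95 ± 0.06 (log2(FPKM + 1), ± SE; limma adjusted p = 1.28e-10). TDG, which removes thymine opposite guanine and also acts in DNA demethylation, rose from 12.0–14.0 FPKM (median 13.1) to 21.5–32.5 FPKM (median 23.9), or by 0.91 (limma adjusted p = 2.35e-08). In C13* shCEBPB the libraries numbered 1 to 3 were all above those numbered 4 to 8, and the difference was 1.19 in libraries numbered 1 to 3 and 0.73 in those numbered 4 to 8. MBD4, a glycosylase of mismatched methylated CpG, rose from 18.9–22.4 to 27.2–39.4 FPKM (0.62). UNG was lower, at 84.0–104 against 105–121 FPKM (−0.25), without overlap.

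The glycosylases for oxidised bases were split. NEIL3 fell from 27.9–35.1 FPKM (median 30.6) in C13* shCON to 3.52–4.87 FPKM (median 3.79) in C13* shCEBPB. Every C13* shCEBPB library was far below every C13* shCON library, at a difference of −2.68 ± 0.06 (limma adjusted p = 1.36e-17) and 7.80 times fewer FPKM. OGG1, the enzyme for 8-oxoguanine paired with cytosine, was higher, at 14.4–19.9 against 8.61–9.72 FPKM (0.88). MUTYH, which removes the adenine that was placed opposite 8-oxoguanine, moved the other way, from 13.1–17.6 to 7.04–9.87 FPKM (−0.79). NTHL1, for oxidised pyrimidines, rose from 22.0–32.0 to 37.5–51.8 FPKM (0.77). Its difference was 0.40 in libraries 1 to 3 and 1.01 in libraries 4 to 8. NEIL2 was lower by a small amount (−0.14), past the threshold in neither library range alone (−0.26 and −0.06), and NEIL1 did not pass (−0.12, 95% interval −0.29 to 0.05). MPG, for alkylated purines, was at 25.5–37.6 FPKM (median 29.4) in C13* shCON and 49.4–80.4 FPKM (median 73.3) in C13* shCEBPB, a difference of 1.11 ± 0.12 (limma adjusted p = 6.03e-08). MPG rose by 0.71 and 1.37 in the 2 library ranges. Its exons share 30.1% of their length with NPRL3 on the other strand, and the strand of counting was not stated. Overlaps on the other strand of 28.6% to 30.5% also hold for LIG3 (RFFL), OGG1 (CAMK1), NEIL1 (MAN2C1) and ERCC1 (POLR1G), and 31.6% of MUTYH belongs to another gene on its own strand, so reads of these genes may be shared.

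Of the 8 genes that act after the glycosylase, 2 rose and 3 fell. FEN1, the flap endonuclease of long-patch repair and of lagging-strand replication, went from 63.0–68.8 FPKM (median 66.8) to 106–139 FPKM (median 129). The groups did not overlap, and the difference was 0.92 ± 0.06 (limma adjusted p = 2.68e-11). LIG1, the ligase of replication and long-patch repair, moved the other way, from 34.6–39.5 FPKM (median 38.5) to 13.2–20.3 FPKM (median 17.7). This was a difference of −1.09 ± 0.07 (limma adjusted p = 1.15e-10), again without overlap. LIG3, the ligase of short-patch repair, and APTX, which clears abortive ligation ends, both fell (−0.60 and −0.57). POLB, the gap-filling polymerase, was higher by 0.28. The endonucleases APEX1 (0.04, 95% interval −0.08 to 0.16) and APEX2 (0.09, −0.0028 to 0.18) and the scaffold XRCC1 (−0.11, −0.34 to 0.12) did not pass. APEX1 had one of the highest levels of all members in both groups, at 117 ± 7.23 and 120.2 ± 10.8 FPKM.

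Among the lesion recognition genes of nucleotide excision repair, CUL4A stood apart. It was at 27.7–31.4 FPKM (median 29.4) in C13* shCON and at 222–275 FPKM (median 243) in C13* shCEBPB. All 8 C13* shCEBPB libraries lay above all 23 others, and the difference was 3.02 ± 0.05 (limma adjusted p = 2.02e-19), or 8.38 times the FPKM. Its paralog CUL4B did not pass (0.14, 95% interval −0.07 to 0.35). The adaptor DDB1, which ties CUL4A to its substrate receptors, was higher by 0.10 only and turned to −0.03 with quantile normalization, and the receptor DDB2, which binds ultraviolet photoproducts, did not pass (0.12, 95% interval −0.03 to 0.28). CETN2, a subunit of the XPC complex, rose from 18.9–25.2 FPKM (median 21.9) to 37.2–51.3 FPKM (median 41.8) (0.93 ± 0.07, limma adjusted p = 9.23e-10). XPC itself, the lesion sensor, was lower (−0.20), and RAD23B, its stabilising partner, did not pass (−0.08, 95% interval −0.16 to 0.01). The genes of the XPC complex thus moved in opposite directions.

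Transcription-coupled recognition rests on ERCC6 and ERCC8. ERCC6 was higher by 0.36, at 6.70–8.36 against 5.45–5.97 FPKM, and ERCC8 did not pass (−0.04, 95% interval −0.19 to 0.10). Of the TFIIH genes, the helicase ERCC3 rose (0.37, 26.8 ± 0.858 to 35.0 ± 1.99 FPKM) and 4 fell. Of those, GTF2H3 fell most, from 29.3–32.3 FPKM (median 30.4) to 16.9–22.0 FPKM (median 18.5) (−0.65 ± 0.06, limma adjusted p = 5.65e-09). The helicase ERCC2 (−0.21), GTF2H4 (−0.17) and GTF2H1 (−0.25) differed by small amounts. The sign of GTF2H1 turned to 0.06 in libraries 1 to 3, and ERCC2 and GTF2H4 did not pass in libraries 4 to 8. GTF2H4 shares 79.7% of its exon length with a noncoding gene on the same strand. For incision, ERCC4, which cuts on the 5′ side of the lesion, rose from 2.57 ± 0.406 to 4.44 ± 0.871 FPKM (0.60), while its partner ERCC1 was lower (−0.27). The verifier XPA was higher (0.22). ERCC5, which cuts on the 3′ side, lay near 1 FPKM and did not pass (−0.11, 95% interval −0.23 to 0.01). Of the exon length of ERCC5, 33.0% also belongs to the readthrough gene BIVM-ERCC5.

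All 6 mismatch repair genes passed, as did 84.7% of all genes, with 3 in each direction, and PMS1 had the widest difference. PMS1, a MutL homolog, fell from 13.5–16.1 FPKM (median 14.4) to 4.36–6.48 FPKM (median 4.93). No library overlapped, and the difference was −1.35 ± 0.07 (limma adjusted p = 3.52e-12). PMS2, the endonuclease subunit of the main MutL complex, was lower (−0.25) but did not pass in libraries 1 to 3. PMS2 has pseudogene copies that can share its reads. MLH3 was lower (−0.21), but was at 0.09 in libraries 1 to 3 and at 0.01 with quantile normalization. The mismatch sensors MSH3 (0.15) and MSH6 (0.12) and the exonuclease EXO1 (0.23) were higher by small amounts. EXO1 was at 31.7–48.7 FPKM in C13* shCEBPB and 30.4–34.5 in C13* shCON, so the libraries overlapped. In libraries 1 to 3 the differences were 0.54 (EXO1), 0.36 (MSH3) and 0.23 (MSH6). In libraries 4 to 8 they were 0.05, 0.02 and 0.05, and none of the 3 passed. MGMT, which lifts the methyl group off O6-methylguanine in 1 step, fell from 30.8–37.3 FPKM (median 33.4) to 7.33–13.1 FPKM (median 9.36). The groups were far apart, at −1.71 ± 0.09 (limma adjusted p = 5.20e-12).

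**Figure D2:**
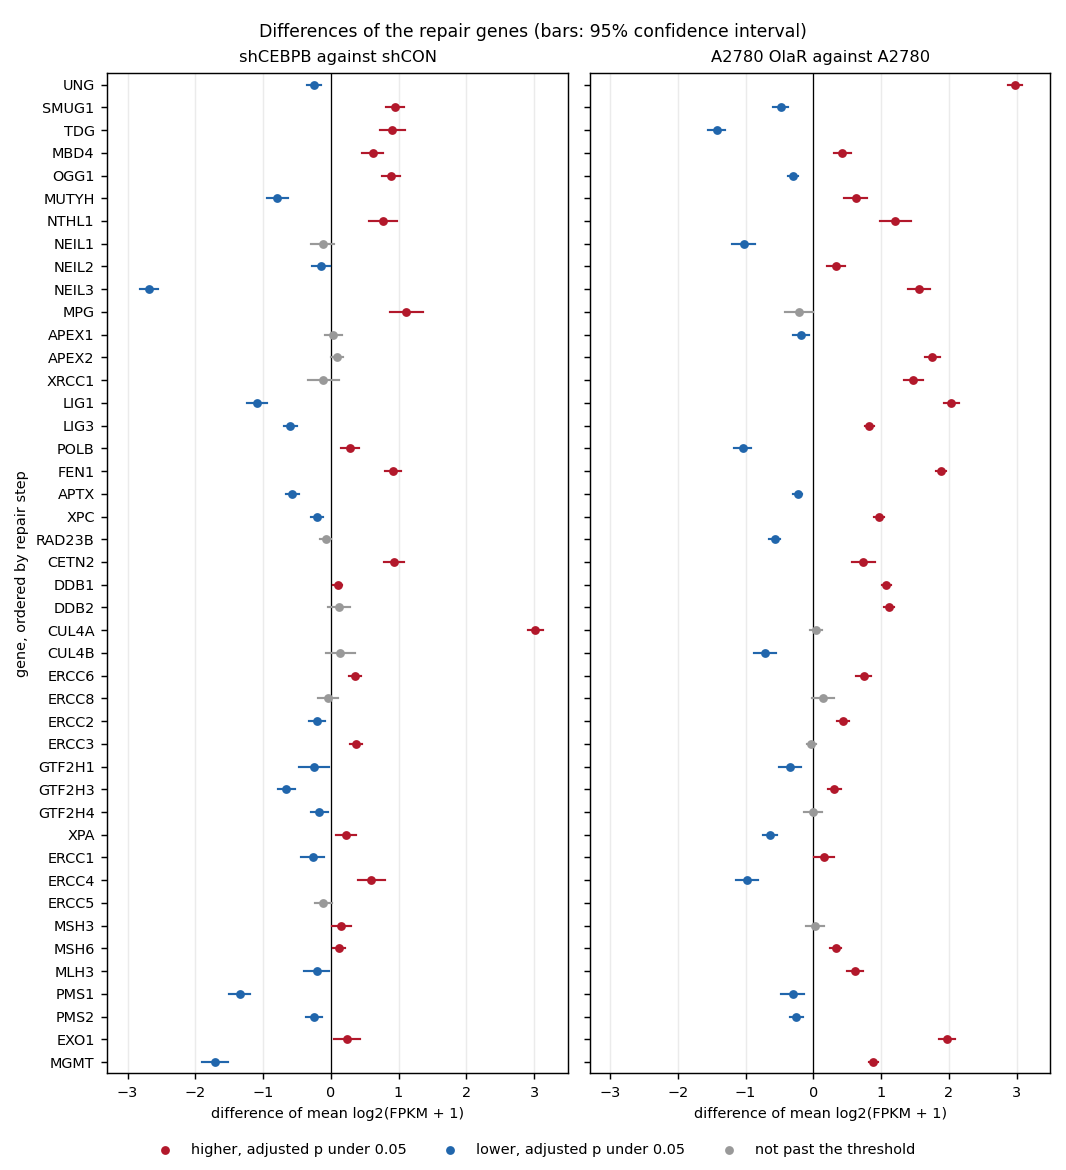
Difference of the mean log2(FPKM + 1) of each repair gene in the 2 comparisons of the study, with its 95% confidence interval; red is higher, blue lower and grey not past an adjusted p of 0.05 in limma. CUL4A is at 3.02 on the left and 0.04 on the right, and UNG at −0.25 and 2.98; ERCC5 was too low to be tested on the right.

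Of 36 other genes of these pathways, 9 were higher (25%; 38.9% of genes) and 18 lower (50%; 45.7% of genes) in C13* shCEBPB. POLE2, a subunit of the replicative polymerase epsilon (−2.0), and MNAT1, of the kinase module of TFIIH (−1.61), fell. ASCC3, a helicase that works with alkylation reversal, fell as well (−1.05). The polymerase delta subunit POLD2 (1.06), the single-strand binding protein RPA1 (1.24), the nucleotide pool sanitiser NUDT1 (0.85) and the demethylase ALKBH3 (0.23) were higher. The list of mismatch repair and resynthesis partners had 3 higher and 8 lower of 14, with a median of −0.23. The summed FPKM of 12 proliferation genes was 897 to 994 in C13* shCEBPB and 1017 to 1093 in C13* shCON. Its part in these differences was not tested.

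Olaparib resistance was read from A2780 OlaR against A2780. Here 37 of 43 tested members passed the threshold (86.0%; 89.8% of 12458 genes). Of these, 23 were higher (53.5%; 40.1% of genes) and 14 lower (32.6%; 49.7% of genes) in A2780 OlaR. At a fold of at least 2 (30.2% of members; 35.7% of genes), 10 were higher (15.5% of genes) and 3 lower (20.1% of genes). The median difference was 0.31 over the members and −0.12 over all genes. On the log2(FPKM + 1) scale the 10 were UNG, LIG1, EXO1, FEN1, APEX2, NEIL3, XRCC1, NTHL1, DDB2 and DDB1, and the 3 were TDG, POLB and NEIL1. XPC (2.05 times higher in FPKM) and ERCC4 (2.29 times lower) fell short on that scale. Groups without any overlap were seen for 32 members (74.4%; 74.1% of genes).

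The uracil glycosylases moved in opposite directions. UNG was at 14.2–18.0 FPKM (median 15.5) in A2780 and 118–141 FPKM (median 131) in A2780 OlaR. The difference was 2.98 ± 0.05 (limma adjusted p = 2.30e-21), or 8.31 times the FPKM. TDG fell from 29.3–35.1 FPKM (median 31.4) to 9.45–13.3 FPKM (median 11.0) (−1.43 ± 0.06, limma adjusted p = 1.01e-14). SMUG1 was lower (−0.48), and MBD4 was higher (0.43). The ratio of UNG to TDG per length was 0.492 ± 0.0401 in A2780 (mean ± SD over libraries), 11.7 ± 1.80 in A2780 OlaR, 8.79 ± 0.840 in C13* shCON and 3.87 ± 0.838 in C13* shCEBPB. A2780 was the group with more TDG than UNG in every library.

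Of the glycosylases for oxidised bases, 4 rose and 2 fell. NEIL3 was at 9.45–12.6 FPKM (median 9.84) in A2780 and 27.4–38.4 FPKM (median 31.9) in A2780 OlaR (1.56 ± 0.08, limma adjusted p = 1.53e-13). NTHL1 rose from 7.98–13.7 to 21.3–33.2 FPKM (1.21), with 0.76 in libraries 1 to 3 and 1.48 in libraries 4 to 8. NEIL1, a glycosylase for oxidised pyrimidines, was lower, from 8.37–12.3 FPKM (median 10.7) to 3.66–5.59 FPKM (median 4.94) (−1.03 ± 0.08, limma adjusted p = 3.34e-10). MUTYH (0.63) and NEIL2 (0.33) were higher and OGG1 was lower (−0.30). MPG missed the threshold (−0.21, 95% interval −0.41 to −0.004, limma adjusted p = 0.0513).

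Of the genes that act after the glycosylase, LIG1 and FEN1 had the largest rise. LIG1 was at 9.31–11.4 FPKM (median 10.4) in A2780 and 40.6–51.3 FPKM (median 46.8) in A2780 OlaR, a difference of 2.04 ± 0.05 (limma adjusted p = 3.51e-18). FEN1 was at 16.1–19.0 FPKM (median 17.9) and 62.7–72.0 FPKM (median 68.8), a difference of 1.89 ± 0.04 (limma adjusted p = 5.03e-20). Neither gene had overlapping libraries. APEX2, an abasic endonuclease with a strong exonuclease, rose from 7.99–9.91 to 29.4–35.4 FPKM (1.76 ± 0.05), and XRCC1, the scaffold of single-strand break repair, from 8.21–11.3 to 24.0–31.3 FPKM (1.48 ± 0.07). LIG3 was higher by 0.83. POLB, the polymerase of the short patch, fell from 26.3–29.3 FPKM (median 27.6) to 10.6–16.1 FPKM (median 12.6) (−1.04 ± 0.06, limma adjusted p = 3.28e-12). The main endonuclease APEX1 was lower (−0.18) and APTX (−0.23). The ratio of FEN1 to POLB was 0.641 ± 0.0317 in A2780 and 5.35 ± 0.878 in A2780 OlaR, and that of LIG1 to LIG3 was 0.720 ± 0.0489 and 1.73 ± 0.166. In the C13* groups FEN1 to POLB was 4.67 ± 0.351 (C13* shCON) and 7.29 ± 1.25 (C13* shCEBPB).

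Of the lesion recognition genes of nucleotide excision repair, 4 rose and 2 fell. DDB1 was at 50.8–56.3 FPKM in A2780 and 111–121 in A2780 OlaR (1.08 ± 0.03), and DDB2 at 19.8–23.5 and 47.3–51.9 (1.11 ± 0.04). XPC rose from 10.6–12.0 to 21.9–24.6 FPKM (0.97), and CETN2 was higher by 0.74. RAD23B (−0.57) and CUL4B (−0.71) were lower. CUL4A, so high in C13* shCEBPB, was at 26.0–29.3 FPKM in A2780 and 26.6–31.7 in A2780 OlaR, with a difference of 0.04 (95% interval −0.04 to 0.12) that did not pass. The ratio of CUL4A to CUL4B was 0.858 ± 0.0556 in A2780, 1.48 ± 0.137 in A2780 OlaR, 1.38 ± 0.109 in C13* shCON and 10.5 ± 1.11 in C13* shCEBPB. ERCC6 rose by 0.74, and ERCC8 did not pass (0.14, 95% interval −0.02 to 0.30).

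Of the TFIIH genes, ERCC2 (0.44) and GTF2H3 (0.31) were higher and GTF2H1 was lower (−0.34). ERCC3 (−0.03, 95% interval −0.10 to 0.04) and GTF2H4 (95% interval −0.13 to 0.13) did not pass. For incision, ERCC4 fell from 5.75–7.12 FPKM (median 6.42) to 2.26–3.77 FPKM (median 2.54) (−0.97 ± 0.08, limma adjusted p = 3.23e-10) and XPA was lower (−0.64), while ERCC1 was higher by 0.16. The sign of ERCC1 turned to −0.13 in libraries 1 to 3, where it still passed the threshold in that opposite direction. The ratio of ERCC1 to ERCC4, which form 1 nuclease, was 2.71 ± 0.389 in A2780 and 7.31 ± 2.15 in A2780 OlaR. ERCC5 was too low to be tested, at 0.120–0.319 FPKM in A2780 and 0.842–1.19 in A2780 OlaR.

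In mismatch repair, EXO1 was at 6.87–8.59 FPKM (median 7.66) in A2780 and 29.6–37.6 FPKM (median 32.5) in A2780 OlaR. The difference was 1.97 ± 0.06 (limma adjusted p = 2.76e-17), and it was 2.21 and 1.84 in the 2 library ranges. MLH3 (0.61) and MSH6 (0.33) were higher, and MSH3 did not pass (0.03, 95% interval −0.10 to 0.16). PMS1 (−0.31) and PMS2 (−0.25) were lower. PMS1 was at 0.04 in libraries 1 to 3 and −0.52 in libraries 4 to 8. MSH6 and MSH3 compete for the same partner protein, and the ratio of MSH6 to MSH3 was 5.44 ± 0.296 in A2780 and 6.74 ± 0.548 in A2780 OlaR. MGMT was at 18.1–20.0 FPKM (median 18.6) in A2780 and 34.3–39.4 FPKM (median 35.3) in A2780 OlaR (0.89 ± 0.03, limma adjusted p = 2.95e-15).

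Of the 36 other genes of these pathways, 25 were higher (69.4%; 40.1% of genes) and 9 lower (25%; 49.7% of genes) in A2780 OlaR. In the list of mismatch repair and resynthesis partners, 12 of 14 were higher and 1 lower, with a median of 1.27. Its largest were the polymerase subunits POLD3 (4.33 ± 0.363 to 34.0 ± 3.43 FPKM, 2.71) and POLE2 (6.51 ± 0.643 to 43.9 ± 4.88, 2.58). PARP1, the target of olaparib, was at 51.4 ± 1.33 FPKM in A2780 and 137 ± 5.19 in A2780 OlaR (1.40 ± 0.03, limma adjusted p = 1.60e-19). DUT, which keeps uracil out of the nucleotide pool, rose by 1.12, and ASCC3 by 0.86. UVSSA (−1.18), GTF2H5 (−1.07) and ALKBH3 (−0.31) were lower. The nucleotide excision repair partners had 4 higher and 6 lower of 11. The 12 proliferation genes summed to 337 to 367 FPKM in A2780 and 1044 to 1144 in A2780 OlaR, with a median difference of 1.72, and UNG, FEN1, LIG1, EXO1 and NEIL3 are known to be expressed most in S phase or dividing cells. The part of this difference in theirs was not tested. Of the 10 members at least 2-fold higher, 2 held the E2F motif (UNG and LIG1), as did 4 of the 31 other members with a window.

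The 2 comparisons share no library, but they are not independent. C13* shCON, the reference of the first, and A2780 OlaR, set against A2780 in the second, had nearly the same means (correlation 0.9926). A gene that is high, or low, in both of these groups against the other groups moves in opposite directions by construction. Of the 30 members past the threshold in both, 18 moved in opposite directions (60.0%), as did 65.0% of 8779 genes. Lower in C13* shCEBPB and higher in A2780 OlaR were 12 (40.0%; 34.6% of genes), which are UNG, MUTYH, NEIL2, NEIL3, LIG1, LIG3, XPC, ERCC2, GTF2H3, ERCC1, MLH3 and MGMT. The reverse held for 6 (20%; 30.4% of genes), which are SMUG1, TDG, OGG1, POLB, XPA and ERCC4. Higher in both were 8 (26.7%; 14.0% of genes): MBD4, NTHL1, FEN1, CETN2, DDB1, ERCC6, MSH6 and EXO1. Lower in both were 4 (13.3%; 21.0% of genes): APTX, GTF2H1, PMS1 and PMS2. Some of these calls were lost under single processing alternatives. They were those of NEIL2, ERCC2, ERCC1, MLH3, XPA, DDB1, MSH6, EXO1, GTF2H1, PMS1 and PMS2.

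C13* shCON and A2780 OlaR, though labelled as different lines, had close levels in most of these genes. At an adjusted p under 0.05 in limma, 12 of 44 members passed (27.3%; 42.2% of genes), of which 4 were higher (9.09%; 22.9% of 11547 genes) and 8 lower (18.2%; 19.3% of genes) in C13* shCON, and none reached a 2-fold difference (0.589% of genes). CETN2 had the largest, at 22.0 ± 2.18 FPKM in C13* shCON and 29.6 ± 3.96 in A2780 OlaR (−0.41 ± 0.08, limma adjusted p = 4.26e-04). MUTYH (−0.37), NEIL1 (−0.32), LIG1 (−0.28) and XRCC1 (−0.25) were lower and NEIL2 was higher (0.30). In libraries 1 to 3 NEIL1 was at 0.0046, MUTYH at −0.15 and XRCC1 at −0.08, none of them past the threshold. CUL4A (0.02, 95% interval −0.07 to 0.11), NEIL3 (−0.09, −0.24 to 0.06) and MGMT (−0.10, −0.19 to −0.01) did not pass. For 3 members the 2 groups were fully apart (6.82%; 16.6% of genes).

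C13* shCEBPB against A2780 sets the 2 groups without KRT5 side by side. In limma 41 of 43 members passed (95.3%; 88.9% of genes), and the groups were fully apart for 30 (69.8%; 72.3% of genes). In C13* shCEBPB 24 were higher (55.8%; 37.4% of 12234 genes) and 17 lower (39.5%; 51.5% of genes), with 12 and 3 at 2-fold (15.5% and 23.0% of genes). The median of all genes was −0.18, and it moved by 0.13 with quantile normalization and by 0.17 with the GC and length correction. CUL4A (3.08), FEN1 (2.76), UNG (2.54), EXO1 (2.17), APEX2 (1.92) and NTHL1 (1.91) had the largest differences. PMS1 (−1.53), NEIL1 (−1.47) and NEIL3 (−1.21) were the 3 that were lower by 2-fold, named here after their values were seen.

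The genes next to the members on the chromosomes were examined after the values were seen, as a description. Of 42 members with 10 tested genes on each side, 10 had at least 16 of these 20 neighbours on their own side of 0 in C13* shCEBPB against C13* shCON (23.8%), near the 19.7% of all 11058 such genes. The median was 11.5 neighbours for the members and 12 for all genes. Among members whose neighbours mostly went the other way were PMS2 (3 of 20 shared its sign), XRCC1 (5 of 20) and MUTYH (7 of 20). CUL4A (chr13:113208193-113267108, plus strand, hg38) was flanked on 1 side by PCID2 (3.17) and MCF2L (3.96). PCID2, an mRNA export factor read from the other strand, went from 26.1 ± 1.41 to 243 ± 19.5 FPKM, and 437 bases of CUL4A exons overlap its exons. ATP11A, the next gene out, was at 1.07. On the other side LAMP1 (−0.18) and GRTP1 (−0.63) were lower. The 20 nearest tested genes, 10 on each side, had a median of 0.16, and RASA3 (2.88) was another high gene farther out. In the 3 other groups the mean of PCID2 was 9.98 to 26.1 FPKM. NEIL3 (chr4:177309874-177362936, plus strand) showed another picture. Of its 20 neighbours 18 were lower, with a median of −1.52, among them VEGFC (−3.20), AGA (−2.31) and IRF2 (−2.30). Around PMS1 on chromosome 2, 18 of 20 neighbours were lower (median −0.99), and around NTHL1 on chromosome 16 all 20 had a positive difference (median 0.81). For SMUG1 and CETN2, 17 and 16 of 20 neighbours shared the direction (medians 0.96 and 1.09).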

How the data were processed

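RNA was extracted with TRIzol and sequenced in pairs after an mRNA library preparation, and the study describes the libraries as biological replicates. The authors deposited 1 table of FPKM values for 31 libraries. Reads had been aligned to hg38 with TopHat, and the processing notes of the submitters also name FastQC and edgeR. Counts were not used here. Reads per gene were counted with HTSeq, but the tool, annotation and strand setting behind the FPKM are not given in the sources used here. The study states a minimum yield for each sample, while read totals of single libraries were not at hand. p-values measure the spread between these libraries, which may be partly technical.

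Of 19225 table entries, 4 were dropped because their symbol occurred more than once. Groups were compared in limma 3.58.1 (R 4.3.3; trended, two-sided) on log2(FPKM + 1), with Benjamini-Hochberg adjustment over all genes that reached 1 FPKM in a number of libraries equal to the size of the smaller group. The pseudocount shrinks the differences of low genes. Each comparison used its own 2 groups. A gene was called at an adjusted p under 0.05. A test on simulated data for A2780 OlaR against A2780 (12458 genes, 200 changed) found 98 of 100 changes of 0.5 and 100 of 100 changes of 1 (log2), with 7 false calls. Its values were drawn independently for each gene and library. False calls from differences that libraries share were therefore not tested. Libraries numbered 1 to 3 and 4 to 8 in the library codes were also compared apart. Inside C13* shCEBPB, NTHL1 parted after library 3, but other genes parted after library 4. KRT17 was at 135 to 183 FPKM in libraries 1 to 4 and 342 to 353 in 5 to 8. PARP1 was at 153 to 160 and 123 to 128, and EXO1 at 39.1 to 48.7 and 31.7 to 33.5. In C13* shCEBPB the range 4 to 8 mixes these sets. In A2780 OlaR some genes parted after library 3. There EXO1 was at 36.9 to 37.6 FPKM in libraries 1 to 3 and 29.6 to 32.6 in 4 to 8. CETN2 was at 32.6 to 35.0 and 25.2 to 30.0, and NUDT1 at 18.2 to 23.2 and 38.1 to 43.6. Each p-value treats all 8 libraries of such a group as replicates. Genes were placed with GENCODE 44 (95.1% of symbols matched). Python 3.11.15 was used for the rest. Members, roles and partner lists were chosen with earlier results of these data known. Members chosen for detail were the 15 called ones with the largest difference in each comparison of the study and every member not called there. To these were added 6 called members in each of the other 2 comparisons, and 2 partners per list. SE, intervals and p-values are given for part of these. The rest, and further members named, have their difference, some with levels. Some genes of these pathways are not reported here. Alternatives were another pseudocount, other filters, 3 scalings, the replicate number as a block and a fold threshold.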

Additional observations from a re-analysis of the deposited data

Results flagged for a closer look

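In 4 of 176 sets (44 genes in 4 groups), 1 library lay apart from the rest of its group by more than the critical gap of a Dixon test, which chance does in about 1 of 20 sets. ERCC2 was at 42.2 FPKM in A2780 OlaR replicate 4, and the other 7 libraries were at 35.6–38.4. ERCC3 was at 28.6 FPKM in C13* shCON replicate 5 against 26.0–26.7 in the others. In A2780 OlaR replicate 5, ERCC3 was at 25.8 FPKM against 27.2–28.4. MGMT was at 39.4 FPKM in A2780 OlaR replicate 6 against 34.3–35.9, and all 8 MGMT values are above those of A2780.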

How the results depend on the processing

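Of 510 values under 9 alternatives, for the 57 member results chosen for detail, 455 kept their direction and side of the threshold. Another 27 newly passed it, 3 no longer did and 25 turned sign. Of these 25, all but that of NEIL1 in C13* shCON against A2780 OlaR belong to members not called as reported, and where no cause is named, the cause was not tested. In C13* shCEBPB against C13* shCON, quantile normalization turned NEIL1 (0.11), APEX1 (−0.092), APEX2 (−0.0082), ERCC8 (0.10) and ERCC5 (0.31). The GC and length correction turned RAD23B (0.11), ERCC8 (0.20) and ERCC5 (0.033). Libraries 1 to 3 alone turned APEX1 (−0.13), APEX2 (−0.0014), RAD23B (0.012), DDB2 (−0.033) and ERCC8 (0.11), and libraries 4 to 8 turned NEIL1 (0.032), XRCC1 (0.066) and CUL4B (−0.042). In A2780 OlaR against A2780, a common sum of FPKM turned CUL4A (−0.029) and MSH3 (−0.032), quantile normalization GTF2H4 (0.052), the GC and length correction ERCC3 (0.0051), and libraries 4 to 8 MPG (0.042), CUL4A (−0.039), GTF2H4 (0.11) and MSH3 (−0.12). In C13* shCON against A2780 OlaR, libraries 1 to 3 turned NEIL1 (0.0046). Over all called members, single alternatives ended 0 to 7 of 35 calls in C13* shCEBPB against C13* shCON (7 in libraries 4 to 8, 6 in libraries 1 to 3), 0 to 2 of 37 in A2780 OlaR against A2780, 0 to 7 of 12 in C13* shCON against A2780 OlaR and 0 to 7 of 41 in C13* shCEBPB against A2780. Signs of called members also turned for GTF2H1, MLH3, ERCC1 and PMS1 in libraries 1 to 3 and for DDB1 and MLH3 with quantile normalization, as given above. In C13* shCEBPB against A2780 they turned for CUL4B, GTF2H3 and TDG with the GC and length correction and for TDG in libraries 1 to 3. Of the turned members, ERCC1 and CUL4B still passed the threshold in the opposite direction and are not counted among the ended calls.

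A fold of at least 2 left 2 higher and 4 lower members in C13* shCEBPB against C13* shCON, 10 and 3 in A2780 OlaR against A2780, 0 and 0 in C13* shCON against A2780 OlaR, and 12 and 3 in C13* shCEBPB against A2780. In C13* shCON against A2780 OlaR, the 4 higher members became 11 in libraries 4 to 8. There the 6 partners called became 13 with the GC and length correction, 15 in libraries 1 to 3 and 18 in libraries 4 to 8. These alternatives were chosen for the partners after seeing the data. Over all genes, calls rose as well, from 4876 of 11547 to 6071 of 11077, 5496 of 11568 and 6538 of 11571, in the same order.

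Equal replicate numbers did not pair the libraries (mean correlation of deviations −0.26 to −0.15, and 0 or 1 library correlated best with its own number). The last 2 replicates of C13* shCON carry library codes 1 higher than their replicate numbers. Pairing by library code was not tested for that group. With the replicate number as a block, 16 higher and 16 lower members were called in C13* shCEBPB against C13* shCON, 22 and 14 in A2780 OlaR against A2780, 2 and 7 in C13* shCON against A2780 OlaR (with 3 partners, and without NEIL1, at a limma adjusted p of 0.0633), and 23 and 16 in C13* shCEBPB against A2780. Of all genes, 9885 of 12006, 10960 of 12458, 3436 of 11547 and 10655 of 12234 passed with this block, in the same order of comparisons. The read depth of single libraries was unknown, so no counting error could be set on low values such as those of ERCC5.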
